A study of Mus musculus with 6 samples.

Results

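The genes described here are 10 that mark or specify astrocytes and oligodendrocytes, of the 21938 protein-coding genes annotated in GENCODE M21: Sox9, Aldh1l1, Gfap and S100b on the astrocyte side, and Olig1, Olig2, Sox10, Mag, Mog and Mbp on the oligodendrocyte side. They were chosen by name, and every CpG cytosine with at least 6 reads in all 6 libraries was taken from 5 kb upstream of the annotated 5' end to the gene end. This gave 406 cytosines of 646645 in the series. Each locus was split into promoter (-1000 to +500 bp of the 5' end), upstream flank (from 5 kb upstream to the promoter) and gene body (from the promoter to the gene end). The libraries came from whole cerebral cortex of C57BL/6 mouse embryos at E16 and were sequenced by Ox-RRBS, reduced representation bisulfite sequencing after an oxidation step, which reads 5-methylcytosine and not 5-hydroxymethylcytosine at CpGs close to MspI sites (CCGG). The cKO group held 3 libraries labelled Uhrf1 -/-, and the control group held 3 libraries labelled Uhrf1 +/-. By the study's description, both groups carried an Emx1-driven Cre, which removes a floxed exon of Uhrf1 in the dorsal telencephalon, from both alleles in cKO and from a single allele in control embryos. Cells of other origin in the dissected cortex, such as interneurons, microglia and vessel cells, are not reached by this Cre and keep Uhrf1. A level is therefore an average over all cells of the tissue, so that fewer methylated cells and less methylation per cell cannot be told apart, and neither cell types nor the deletion could be checked from these methylation values.

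Uhrf1 binds hemimethylated CpGs behind the replication fork and brings the maintenance methyltransferase to them, so that a dividing cell without it passes on less methylation. Cortical stem cells make neurons first and glia later, and in mouse forebrain the loss of methylation at a STAT element upstream of Gfap is a known step in the gain of astrocyte competence. Genes of lineage transcription factors usually start in CpG islands that stay free of methylation, whereas genes of mature glia often start in CpG-poor sequence.

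The stretches below carry the main contrasts between these loci, and the capitals mark each CpG with a cytosine covered in all 6 libraries. The Mag bases end at a RefSeq start and the Aldh1l1 bases lie before the inner start of that gene (both GRCm38.p6, in the RefSeq promoter table). The Gfap stretch is 100 bp of GRCm38 that hold the STAT element and span parts of 2 windows. The others are 100 bp windows or parts of them in GRCm38. In the Gfap stretch with the STAT element, the run of 9 capitals is the element itself. All are printed 5′ to 3′ on the strand of the gene.
Mag, upstream, chr7:30914923-30915172, minus strand: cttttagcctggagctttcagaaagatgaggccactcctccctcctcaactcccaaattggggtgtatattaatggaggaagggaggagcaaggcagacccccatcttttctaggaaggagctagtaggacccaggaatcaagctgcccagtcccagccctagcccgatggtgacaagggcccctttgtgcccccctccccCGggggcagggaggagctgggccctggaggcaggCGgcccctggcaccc
Aldh1l1, before the inner start, chr6:90550543-90550788, plus strand: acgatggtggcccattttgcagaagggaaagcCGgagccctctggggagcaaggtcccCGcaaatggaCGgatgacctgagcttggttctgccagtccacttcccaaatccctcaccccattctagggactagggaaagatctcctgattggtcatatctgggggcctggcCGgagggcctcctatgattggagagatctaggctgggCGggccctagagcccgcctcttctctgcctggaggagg
Gfap, STAT element, chr11:102898561-102898660, minus strand: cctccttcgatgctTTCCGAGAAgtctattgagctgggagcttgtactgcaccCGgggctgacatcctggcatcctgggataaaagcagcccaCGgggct
Sox10, intron, chr15:79160501-79160600, minus strand: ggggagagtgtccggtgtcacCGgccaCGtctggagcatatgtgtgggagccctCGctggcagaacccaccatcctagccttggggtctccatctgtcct
Mog, coding exon, chr17:37020601-37020700, minus strand: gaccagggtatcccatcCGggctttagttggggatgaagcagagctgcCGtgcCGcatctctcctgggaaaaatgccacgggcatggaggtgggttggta
Olig1, coding exon, chr16:91270601-91270656, plus strand: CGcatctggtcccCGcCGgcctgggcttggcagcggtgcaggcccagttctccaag

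The files held 22495858 to 31019082 reads over listed cytosines in the cKO libraries and 18238737 to 22212920 in the control libraries, with a median coverage of 13 to 17 reads per cytosine. The library labelled control replicate 1 stood apart from its group before any result below. Its mean level over all 646645 cytosines was 15.6%, while the cKO libraries were at 19.6%, 19.4% and 15.8% and control replicates 2 and 3 at 39.4% and 38.9%. Whether this library is a control as labelled cannot be told from these files, and every value with or without it carries that doubt. It kept its label in the fit of all 6 libraries, and every comparison is also given without it. That second fit leaves out a control because of the outcome measured, and its calls rest on that choice. A region or 100 bp window was called at a Benjamini-Hochberg q under 0.01 over all features of its kind, where group means lay 25 percentage points or more apart, in a quasi-binomial test moderated with limma.

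Of the 30 possible regions of the 10 genes, 20 held at least 3 covered cytosines: 6 promoters, 4 upstream flanks and all 10 bodies. With all 6 libraries, 0 of the 20 were called, as were 0 of the 167 windows (0.0% of all promoters, flanks, bodies and windows were called). At an unadjusted p under 0.05 the moderated test had 1 of 4 flanks, that of Sox10 (19.4% of all flanks), 1 of 10 bodies, that of Mbp (21.9% of all bodies), 0 of 6 promoters and 21 of 167 windows (15.3% of all windows). limma on the library levels also called 0 regions and 0 windows, and a plain binomial test, which ignores the spread between libraries, called 1 promoter, 2 flanks, 3 bodies and 47 windows lower, against 3.16%, 39.6%, 35.9% and 37.5% of all. Without control replicate 1, 0 of 6 promoters were called lower, against 0.806% of all promoters. In the same fit 2 of 4 flanks were called lower (52.5% of all flanks), as were 4 of 10 bodies (57.7% of all bodies) and 54 of 167 windows (44.1% of all windows), and none of these was called higher. The flanks were those of Olig1 and Sox10, and the bodies were those of S100b, Mag, Mog and Mbp. With all 6 libraries, the differences of these 6 regions were -24.43 to -40.62 points, with q between 0.213 and 0.258.

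**Figure D1:**
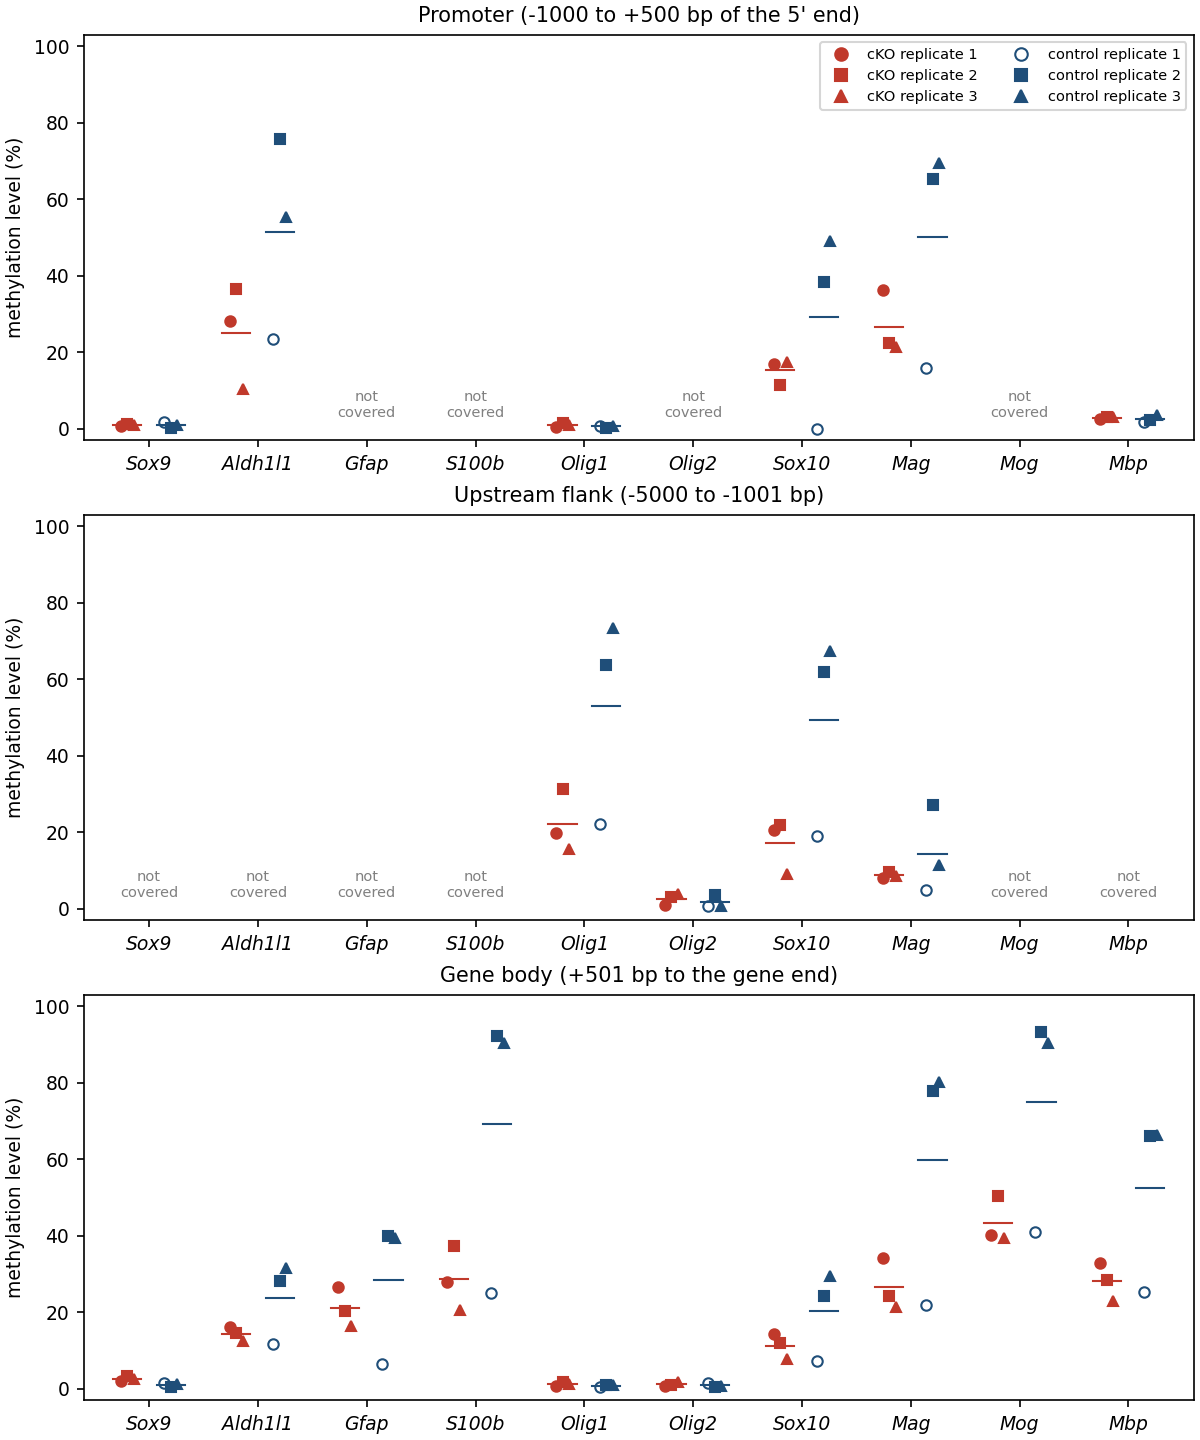
Methylation level in percent (y axis) of the promoter, upstream flank and gene body of each gene (x axis), with 1 point per library and a line at the mean of all 3 libraries of a group. Regions with under 3 cytosines covered in all 6 libraries are marked as not covered. In the S100b, Mag, Mog and Mbp bodies the 3 cKO points and control replicate 1 (open circle) lie below control replicates 2 and 3, whereas the Sox9, Olig1 and Olig2 promoters and bodies shown lie below 4% in every library.

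Sox9, an HMG-box transcription factor that promotes gliogenesis (chr11:112782224-112787760, plus strand), was nearly free of methylation in every library. Its promoter (29 cytosines, at least 542 reads per library) stood at 0.810%, 1.10% and 1.05% in cKO replicates 1 to 3, against 1.76%, 0.184% and 0.929% in control replicates 1 to 3. The body (23 cytosines) stood at 1.93%, 3.19% and 2.66% in the cKO libraries and at 1.52%, 0.318% and 1.11% in the controls. All 53 cytosines of the locus lay in CpG islands, and neither region differed by more than 2 points between the group means. The windows with the widest differences among those with at least 20 reads in every library, chr11:112782301-112782400 in a UTR and chr11:112783101-112783200 in an intron, differed by 2.83 and 1.99 points with all libraries and were not called in either fit.

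Aldh1l1, a folate enzyme used as a marker of astrocytes (chr6:90486427-90600203, plus strand), has its annotated 5' end at a transcript outside the basic coding set of GENCODE, and the coding transcripts of that set start 64362 bp further in. At the outer end, 4 promoter cytosines stood at 28.0%, 36.5% and 10.3% in the cKO libraries, against 23.3%, 75.7% and 55.4% in the controls. The 3 cKO levels were below control replicates 2 and 3, and control replicate 1 lay among them. The difference was not called without control replicate 1 (-40.60 points, q = 0.17), with as few as 52 reads in a library. Around the inner start, which follows the bases printed above, 18 cytosines stood at 8.76%, 5.94% and 4.65% in the cKO libraries and at 5.41%, 12.5% and 16.2% in the controls. The inner start was thus low in all 6 libraries, and its difference without control replicate 1 was -7.90 points. Past it, 8 body cytosines averaged 26.9%, 30.9% and 29.9% in the cKO libraries, and 29.7%, 76.8% and 80.2% in the controls. Among windows with at least 20 reads in every library, the widest differences lay in these introns, at chr6:90570001-90570100 and chr6:90593401-90593500, with -51.68 points (q = 1.25e-05) and -51.01 points (q = 0.000226) without control replicate 1. Summed over the body (38 cytosines), the cKO libraries averaged 14.4% ± 1.78 (SD, n = 3) and control replicates 2 and 3 averaged 29.8% ± 2.38 (SD, n = 2), a difference of -15.43 points that stayed under the 25-point threshold (q = 0.000221).

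Gfap encodes the intermediate filament of astrocytes (chr11:102887336-102900912, minus strand). No cytosine was covered in any library around its annotated 5' end, which again belongs to a transcript outside the basic coding set. The coding transcripts of that set start 3712 and 3781 bp downstream, and the first coding exon lies in a CpG island. Over the 11 cytosines from -1000 to +500 bp of the first of these starts, all of them in that exon, cKO replicates 1, 2 and 3 stood at 46.0%, 30.3% and 26.2%, and control replicates 1, 2 and 3 at 5.56%, 79.1% and 75%. Control replicate 1 lay below every cKO library there (95% Wilson interval 3.54% to 8.61%, 324 reads), and control replicates 2 and 3 lay above all of them. When the promoter test was run at every annotated start of a coding transcript, a set added after the data were seen, the difference without control replicate 1 was -42.89 points with q = 0.033 and was not called (0.0% of 22931 such starts were). With autosomes only it was called (q = 0.00158), as were 3.34% of autosomal starts. A later coding exon at chr11:102894501-102894600 stood at 38.2%, 39.3% and 21.2% in the cKO libraries, against 26.0%, 84.0% and 89.6% in the controls, and was called lower without control replicate 1 (-53.88 points, q = 1.41e-06).

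Some other parts of the Gfap locus did not share this pattern. A second CpG island inside the gene held 10 cytosines at 0.777%, 1.24% and 1.19% in the cKO libraries and 2.59%, 0.962% and 0% in the controls. The STAT element, written TTCCGAGAA and searched on both strands of the 10 loci, had 1 match, 1446 bp upstream of the first coding start of Gfap at chr11:102898638-102898646 on the minus strand. The element is in 55 of 32851 RefSeq promoters of 300 bases (0.167%), and in 0 of the 8 listed for these genes. Its own CpG was not covered in all 6 libraries. The 2 covered cytosines next to it averaged 9.31%, 16.1% and 12.0% in the cKO libraries and 10.4%, 16.8% and 4.76% in the controls, so the groups overlapped. These cytosines had as few as 20 and 17 reads in a library. The only covered flank cytosine, with as few as 6 reads in a library, did share the pattern. It stood at 22.2%, 50% and 15.4% in the cKO libraries, against 0%, 75% and 66.7% in the controls. Summed over the body (25 cytosines), Gfap stood at 26.7%, 20.4% and 16.3% in the cKO libraries, against 6.40%, 39.8% and 39.4% in the controls. This body difference was -18.49 points without control replicate 1 (q = 0.000823), short of the threshold of 25 points.

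**Figure D2:**
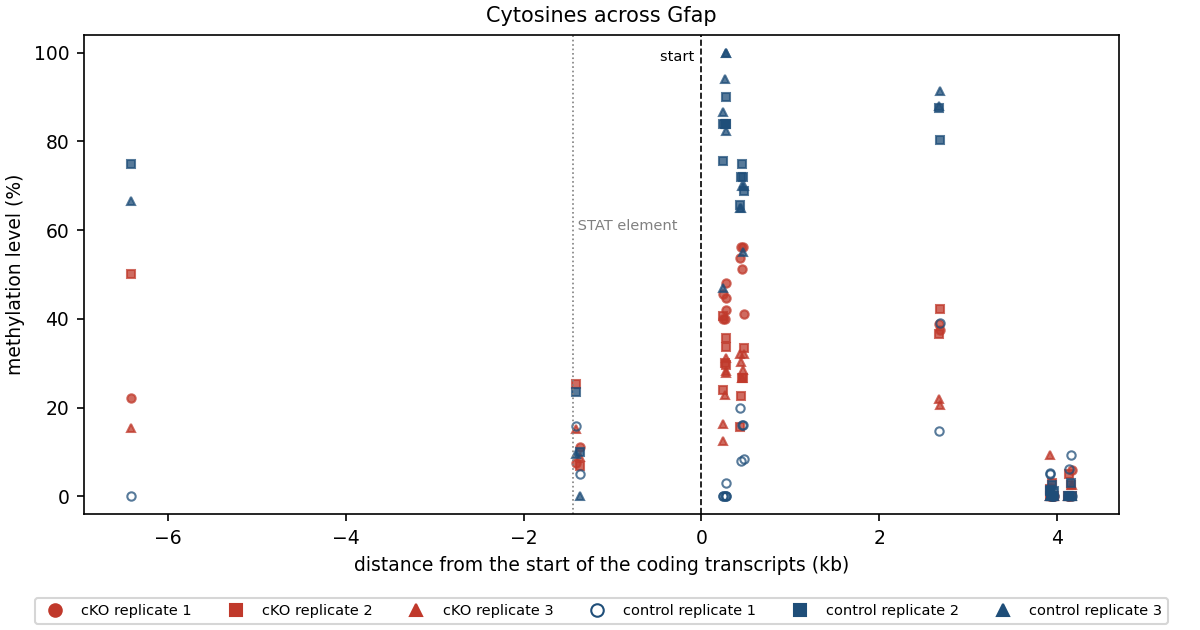
Methylation level in percent (y axis) of the 26 covered Gfap cytosines against the distance in kb from the first start of a coding transcript (x axis; dashed line at the start, dotted line at the STAT element), with 1 point per library. In the first coding exon, just right of the start, the cKO points lie between control replicate 1 (open circles) and control replicates 2 and 3. The points beside the STAT element overlap between groups, and the island near 4 kb is low in all libraries.

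S100b, a calcium-binding protein of astrocytes (chr10:76253853-76261159, plus strand), held 4 covered cytosines, all in the window chr10:76257001-76257100 spanning intron, UTR and coding exon. They stood at 27.8%, 37.3% and 20.5% in the cKO libraries, against 25%, 92.1% and 90.4% in the controls. Every cKO library and control replicate 1 (interval 16% to 36.8%, 64 reads) lay far below the other 2 controls. Without control replicate 1 the body was called lower (-62.71 points, q = 0.000309), and the cKO mean was 31.3% of the control mean, the lowest share among the bodies of these genes. No cytosine near the S100b start was covered in any library, and the RefSeq bases upstream of it hold 0 MspI sites. The part of the locus analysed overlaps Dip2a, as that of Gfap overlaps Kif18b.

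Olig1 and Olig2, neighbouring bHLH transcription factors that specify oligodendrocyte precursors, were nearly unmethylated. For Olig1 (chr16:91269772-91271933, plus strand), the promoter (17 cytosines) stood at 0.414%, 1.38% and 0.912% in the cKO libraries and at 0.623%, 0.286% and 0.813% in the controls, and the body (25 cytosines) stayed below 2% in every library. The printed coding bases belong to a window at 2.04%, 7.83% and 0.654% in the cKO libraries and 4.76%, 0% and 1.11% in the controls. For Olig2 (chr16:91225457-91228677, plus strand), the body (31 cytosines) stood at 0.792%, 1.07% and 1.75% in the cKO libraries, against 1.46%, 0.416% and 0.659% in the controls. The Olig2 flank (20 cytosines) stood at 0.891%, 2.94% and 3.90% in the cKO libraries, against 0.713%, 3.45% and 0.813% in the controls, and the groups overlapped. Its widest window differences with all libraries, again among windows of at least 20 reads, at chr16:91222701-91222800 and chr16:91222801-91222900 in the flank, were 1.25 and 3.76 points and were not called. The Olig1 flank was the exception. Its 3 cytosines, outside any island, stood at 19.9%, 31.2% and 15.6% in the cKO libraries, against 22.1%, 63.8% and 73.4% in the controls. It was called lower without control replicate 1 (-46.34 points, q = 1.37e-05), as was its window chr16:91266401-91266500 (-42.08 points, q = 7.08e-05).

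Sox10, an HMG-box factor needed for oligodendrocyte maturation (chr15:79154908-79165240, minus strand), combined both patterns. Its flank (6 cytosines) stood at 20.5%, 22.0% and 9.14% in the cKO libraries, against 18.9%, 61.9% and 67.3% in the controls. Every cKO library lay below control replicates 2 and 3, and the flank was called lower without control replicate 1 (-47.37 points, q = 3.56e-06) with 26.6% of the control mean left. The window with the widest difference was chr15:79168701-79168800 in this flank. It differed by -63.47 points without control replicate 1 (q = 1.03e-05). With all 6 libraries it differed by -45.25 points and was not called. The 3 covered promoter cytosines stood at 17.0%, 11.5% and 17.5% in the cKO libraries, and at 0%, 38.5% and 49.0% in the controls. They lie in a CpG island of 450 bp upstream of the 5' end. The level of 0% in control replicate 1 rests on 0 of 30 reads, which allows up to 10%, and the promoter was not called (q = 0.184 without that library). In contrast, another CpG island, past the inner start 750 bp downstream, held 25 cytosines with low levels. They averaged 1.53%, 2.12% and 1.51% in the cKO libraries and 0.368%, 4.61% and 0.853% in the controls. Further in, the intron window printed above stood at 25.4%, 24.2% and 19.5% in the cKO libraries, against 19.8%, 79.7% and 78.7% in the controls, and was called lower without control replicate 1 (-56.15 points, q = 7.15e-09). The whole body (38 cytosines) averaged 11.3% ± 3.30 in the cKO libraries and 26.8% ± 3.59 in control replicates 2 and 3 (SD, n = 3 and n = 2), with a difference of -15.57 points below the threshold.

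Mag, an adhesion molecule of the myelin sheath facing the axon (chr7:30899176-30914873, minus strand), was methylated from its start through its body in control replicates 2 and 3. The promoter (8 cytosines, 105 to 259 reads) stood at 36.4%, 22.3% and 21.2% in the cKO libraries and at 15.9%, 65.3% and 69.5% in the controls. The 3 cKO libraries lay below control replicates 2 and 3 and above control replicate 1 (interval 10.9% to 22.6%). Without control replicate 1 the difference was -40.77 points with q = 0.0378, which was not called, and with autosomes only it was called at q = 0.00343, as were 3.63% of autosomal promoters. The body (12 cytosines) stood at 34.2%, 24.4% and 21.3% in the cKO libraries, against 21.8%, 77.8% and 80.1% in the controls, and was called lower without control replicate 1 (-52.31 points, q = 2.16e-05). The widest of its windows with at least 20 reads were an intron window at chr7:30910001-30910100 and a coding window at chr7:30901801-30901900. Without control replicate 1 they differed by -54.39 (q = 4.86e-08) and -53.95 points (q = 1.51e-05). With all 6 libraries they differed by -36.52 and -32.04 points and were not called. The flank (4 cytosines) was low, with 8.14%, 9.65% and 8.43% in the cKO libraries and 4.76%, 27.0% and 11.4% in the controls. It was not called (q = 0.0749 without control replicate 1).

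Mog, a glycoprotein of the outer myelin surface (chr17:37010743-37023398, minus strand), had the highest body levels of these genes. Its 6 covered cytosines stood at 40.1%, 50.3% and 39.5% in the cKO libraries, against 41.0%, 93.2% and 90.4% in the controls. The body was called lower without control replicate 1 (-48.53 points, q = 0.000109), with 47.2% of the control mean left. The printed window of the Mog coding exon stood at 38.5%, 50.9% and 46.9% in the cKO libraries and at 37.8%, 97.4% and 95% in the controls. Without control replicate 1 it differed by -50.77 points (q = 3.15e-07). The next window, chr17:37020501-37020600 of the same exon, differed by -54.03 points in that fit (q = 7.21e-05). With all 6 libraries these windows differed by -31.28 and -37.40 points, and neither was called.

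Mbp encodes the protein that holds the cytoplasmic faces of myelin together (chr18:82475146-82585637, plus strand). Its outer start gives the Golli transcripts, which are also made outside oligodendrocytes, and its classical transcripts start near the inner starts, the last of them 79434 bp downstream. The outer promoter (30 cytosines) stood at 2.55%, 3.18% and 2.97% in the cKO libraries and at 1.84%, 2.20% and 3.48% in the controls, and the groups overlapped. The body (77 cytosines, at least 1363 reads per library) stood at 33%, 28.4% and 22.8% in the cKO libraries, against 25.2%, 66% and 66.3% in the controls. It was called lower without control replicate 1 (-38.09 points, q = 2.42e-06). Cytosines between the outer and inner starts (40) averaged 32.8%, 29.9% and 24.2% in the cKO libraries and 22.1%, 56.0% and 56.6% in the controls. Cytosines past the inner starts (36) averaged 35.7%, 28.8% and 25.4% in the cKO libraries and 27.7%, 73.2% and 72.6% in the controls, so the cKO averages were alike on both sides although control replicates 2 and 3 were higher past the inner starts. The windows chosen by their difference with all 6 libraries, among those with at least 20 reads, were both intronic, at chr18:82521901-82522000 and chr18:82581801-82581900. They differed by -39.76 and -46.00 points with all 6 libraries, and by -60.64 (q = 4.67e-06) and -63.32 points (q = 4.50e-06) without control replicate 1.

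**Figure D3:**
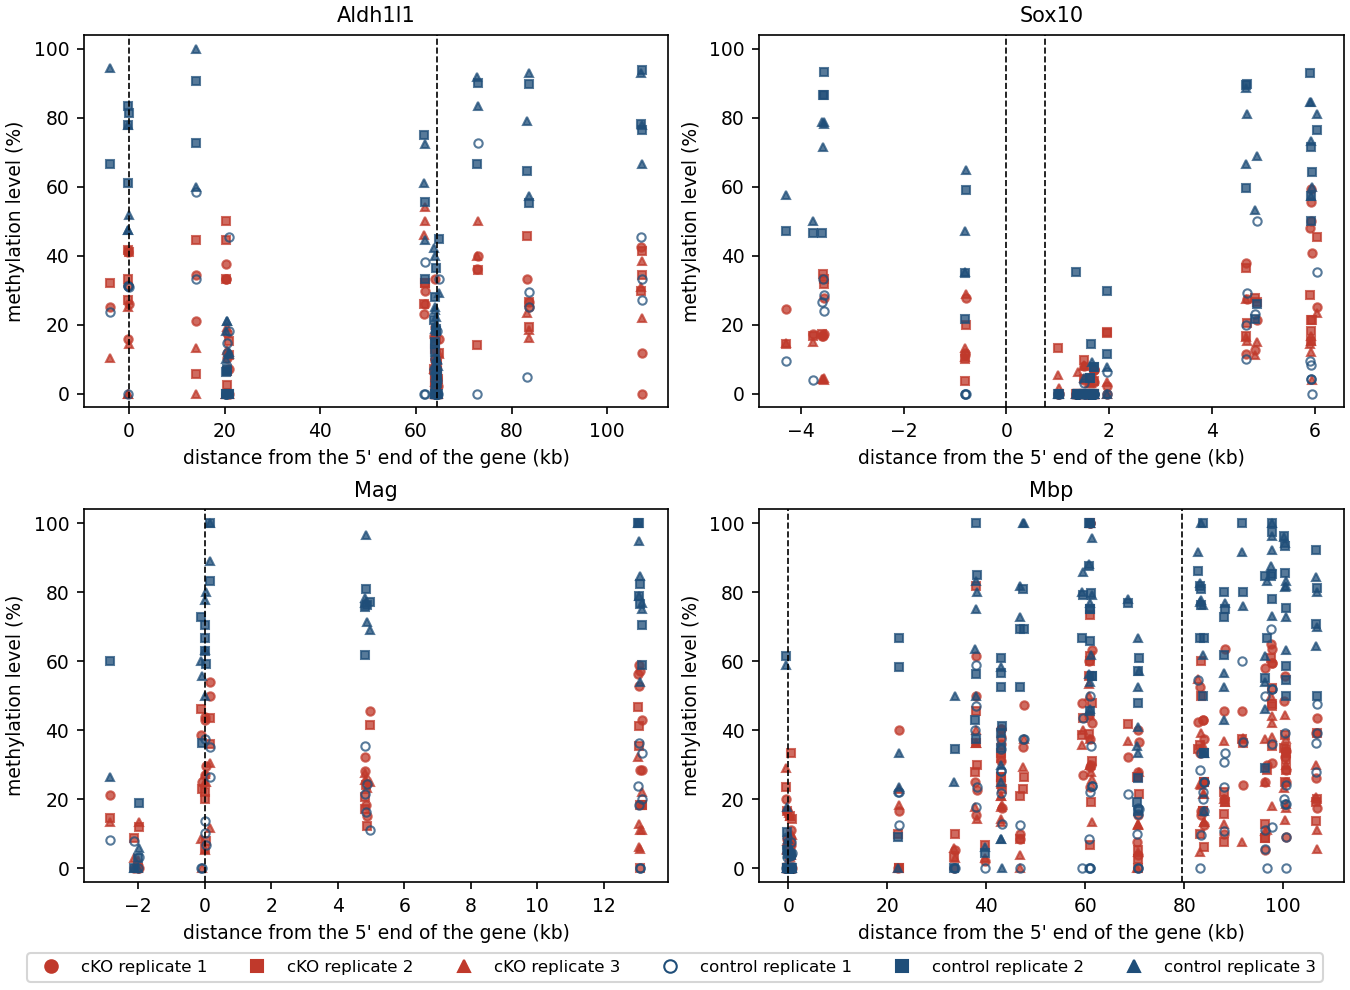
Methylation level in percent (y axis) of each covered cytosine of Aldh1l1, Sox10, Mag and Mbp against the distance in kb from the annotated 5' end (x axis), with 1 point per library and dashed lines at the 5' end and, where a coding transcript starts further in, at an inner start. At the Aldh1l1 and Sox10 inner starts and at the Mbp outer start the points of both groups lie mostly below 40%. Elsewhere control replicates 2 and 3 (filled squares and triangles in blue) mostly lie above the cKO points and control replicate 1.

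Across the 20 regions, 12 had a mean of at least 25% in control replicates 2 and 3. In these 12 the cKO mean was 26.6% to 53.3% of the control mean, with a median of 38.8%. The same share had a median of 41.9% over all promoters at or above 25%, 39.2% over such flanks and 41.1% over such bodies, so the pooled median of the glial genes lay close to those of all genes. By region type, the glial medians were 38.1% for 3 promoters, 29.5% for 2 flanks and 42.4% for 7 bodies. Both flanks, with 26.6% left at Sox10 and 32.4% at Olig1, lay below the lower quartile of all flanks (34.4%). Every cKO library was below control replicates 2 and 3 in 3 of 6 promoters (12.0% of all promoters), 3 of 4 flanks (69.0% of all flanks) and 7 of 10 bodies (84.4% of all bodies). Control replicate 1 lay below every cKO library in 10 of the 20 regions and above every one in 1, the Sox9 promoter. The share over all regions was not computed, and this library had the lowest mean over the series (15.6%). The Sox9 promoter and body, the Olig1 body, the Olig2 flank and the Mbp promoter, among these, were nearly unmethylated in every library.

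Single cytosines fell into low and high classes. In control replicates 2 and 3, 224 of the 406 cytosines averaged under 10%, 45 were between 10% and 50%, and 137 were at 50% or more. The high class held 33.7% of the glial cytosines, against 43.8% of all cytosines in the series. Within it the cKO libraries averaged 36.4%, 31.6% and 24.5%, control replicate 1 averaged 24.0%, and control replicates 2 and 3 averaged 75.5% and 76.5%. The cKO mean lay below the mean of control replicates 2 and 3 at 136 of these 137 cytosines, a count not taken over the series. The high class of the whole series (283172 cytosines) averaged 36.7% in cKO, 32.2% in control replicate 1 and 82.7% in control replicates 2 and 3. The low class averaged 1.40%, 2.63% and 1.83% in the cKO libraries and 1.36%, 0.863% and 0.907% in the controls. Since the classes were set from control replicates 2 and 3, a lower cKO mean in the high class is favoured by that choice. These averages and the count of 136 are a description only. Of the cytosines in CpG islands (243), the cKO libraries averaged 6.17%, 5.53% and 4.49%, and the controls 2.76%, 9.996% and 10.4%. Outside islands (163) the cKO libraries averaged 27.9%, 26.0% and 19.7%, and the controls 21.1%, 57.4% and 57.7%.

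**Figure D4:**
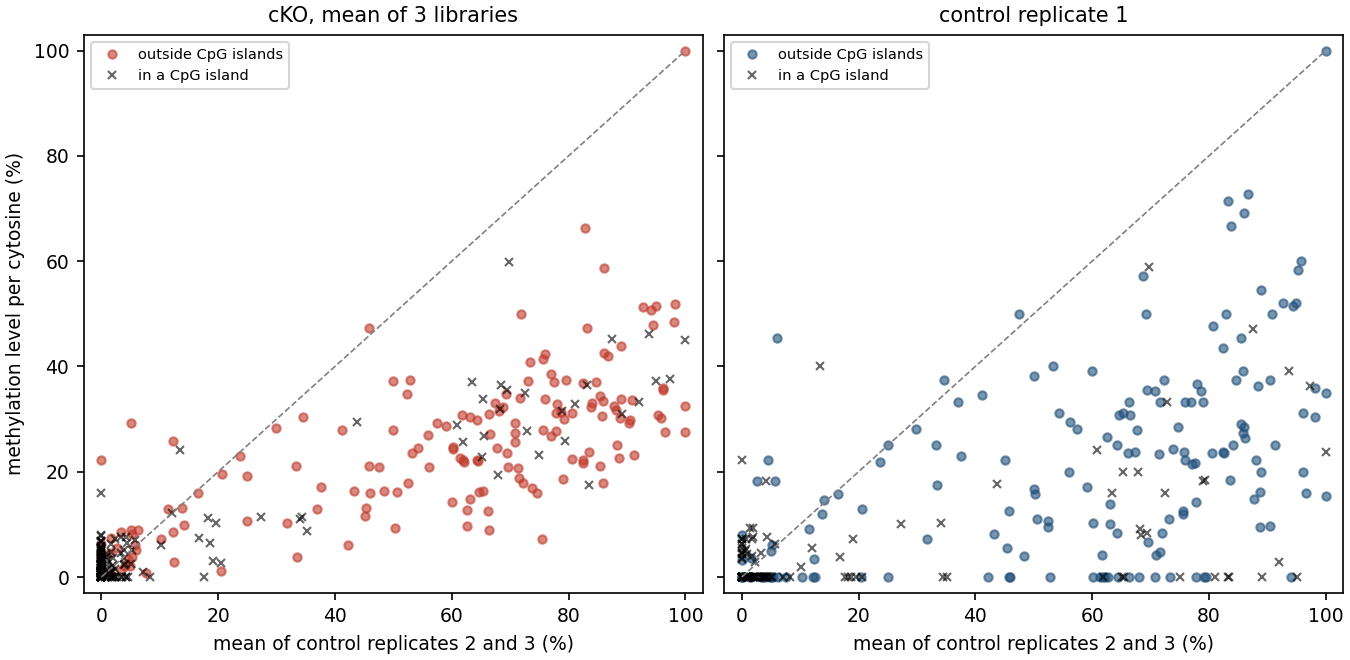
Level in percent of each of the 406 cytosines in the cKO libraries (left, mean of 3) and in control replicate 1 (right), on the y axis, against the mean of control replicates 2 and 3 on the x axis. Crosses are cytosines in CpG islands, filled circles lie outside islands, and the dashed line marks equal levels. In both panels most cytosines at 50% or more on the x axis lie below the line, and 1 Mbp cytosine stands at 100% in all libraries.

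Other genes of the 2 lineages were read from lists of 23 astrocyte and 24 oligodendrocyte genes. With all 6 libraries, 0 of their 86 tested regions were called by the moderated test or by limma on levels. In the moderated test 7 had an unadjusted p under 0.05. Over all genes, 261 of 11787 promoters, 19.4% of flanks and 21.9% of bodies had such a p. Without control replicate 1, 0 of 16 astrocyte promoters, 2 of 6 flanks and 6 of 22 bodies were called lower, and 0 of 13 oligodendrocyte promoters, 6 of 9 flanks and 12 of 20 bodies. Over all genes the shares were 0.806% of promoters, 52.5% of flanks and 57.7% of bodies. The astrocyte bodies were thus called in a smaller share than all bodies, and the oligodendrocyte bodies in about the same share. A body under 25% in control replicates 2 and 3 cannot be called lower. At or above 25% were 11 of 22 astrocyte bodies, 16 of 20 oligodendrocyte bodies and 10007 of 13394 bodies over all genes. In these the cKO mean was at the median 46.8%, 39.4% and 41.1% of the control mean. The median body level over the tested astrocyte genes was 12.1% in cKO and 23.8% in control replicates 2 and 3, and over the oligodendrocyte genes it was 26.7% in cKO and 63.5% in control replicates 2 and 3, against 23.7% and 57.7% over all bodies. Of the astrocyte genes, the Acsbg1 body stood at 36.1%, 42.6% and 30.2% in the cKO libraries, against 26.6%, 84.1% and 90.7% in the controls (-51.09 points without control replicate 1, -30.84 with all 6). Without control replicate 1, the bodies of Slc1a2, a glutamate transporter, and of Sparcl1 were called with differences of -34.31 and -34.30 points, and the flanks of Fgfr3 and Gjb6 with -48.51 and -39.01 points. With all 6 libraries these differences were -24.17 and -24.05 points for the bodies, and -31.37 and -22.95 points for the flanks, and none was called. The Hepacam promoter stood at 30.0%, 30.3% and 15.3% in the cKO libraries, against 17.0%, 67.9% and 77.7% in the controls, and was called without control replicate 1 in the fit of autosomes (q = 0.00126), not in the fit of all promoters (q = 0.0241).

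Among the oligodendrocyte genes, Gpr17, a receptor of committed precursors, was called in flank and body without control replicate 1, and in neither with all 6 libraries (q = 0.274 and 0.215). Its body (19 cytosines) stood at 35.5%, 35.8% and 24.2% in the cKO libraries, against 18.2%, 81.2% and 82.3% in the controls. The bodies of Mobp, Enpp6 and Opalin were called with -49.96, -46.85 and -45.49 points without control replicate 1, and the flanks of Sox8, Gpr17 and Opalin with -49.81, -48.94 and -46.86 points. With all 6 libraries, none of these regions was called, and the differences were -31.77, -30.28 and -29.19 points for the bodies and -31.90, -31.67 and -26.73 points for the flanks. Of the oligodendrocyte promoters, Aspa, Cldn11 and Zfp488 had the highest mean over all libraries. The Aspa promoter, of the enzyme that cleaves N-acetylaspartate, stood at 37.9%, 51.3% and 33.3% in the cKO libraries, against 34.0%, 84.4% and 69.0% in the controls, and was not called (q = 0.230 without control replicate 1). The highest level in any library was 14.4% at the Cldn11 promoter and 6.09% at the Zfp488 promoter. Of the astrocyte promoters, Sparcl1 reached 17.7% and Atp1b2 21.7% at most.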

How the data were processed

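Ox-RRBS calls from 6 libraries, 3 cKO and 3 control, were analysed, grouped by the genotype in the labels. The authors mapped reads to GRCm38 without mismatches, removed positions covered by 5 reads or fewer, and deposited, per cytosine, the read count (coverage) and the percent of reads with C or T, not normalized between libraries. methylKit and GRCm38 are named in the submitters' processing notes. Mapping without mismatches can drop reads that carry variants, and only CpGs near MspI sites are read. The members and gene lists were chosen with earlier results of these data known.

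Here methylated reads were recovered as percent times coverage (rounded by less than 0.5 of a read) and summed per region or 100 bp window over cytosines with at least 6 reads in all 6 libraries. Promoters, flanks and bodies needed 3 cytosines. A quasi-binomial F test was fitted per feature, with its dispersion moderated by limma (prior from features pooled between 5% and 95%, floor of 1), and Benjamini-Hochberg adjusted over all features of a kind. It was tested on simulated reads, with all control libraries set at the levels of control replicates 2 and 3. That simulation did not cover a control library at the level of the cKO libraries. Group means are means of library levels, in percentage points as cKO minus control. Named genes were all 10 members, up to 4 called genes per list and region type by difference (the 3 highest by mean where none was called), and, per member, the 2 windows with the widest difference over all 6 libraries among those with at least 20 reads in every library. CpG islands were stretches of at least 200 bp with at least 50% GC and an observed to expected CpG ratio of at least 0.6. The labels do not say that libraries came from separate litters, so a p-value here covers only how these libraries vary. Reads carry no molecular identifiers and neighbouring cytosines share reads, so Wilson intervals and the limits for 0 reads (3 reads of the total) cover counting error only. Alternatives were a coverage minimum of 10, other thresholds, a plain binomial test, unmoderated dispersion, limma on levels, autosomes only, a replicate block and each library left out. Those applied to the fit of 5 libraries, and promoters at every coding start, were added after the data were seen. The tools were limma 3.58.1 in R 4.3.3, and pysam 0.24.0, scipy 1.17.1, numpy 2.4.6, matplotlib 3.10.9 and pandas 2.3.3 in Python 3.11.15. Promoters of Sox10, Sox9, Olig1 and Mbp were not used from the RefSeq table. Some items chosen by these rules are not reported here.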

Additional observations from a re-analysis of the deposited data

How the results depend on the processing

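With all 6 libraries, 0 promoters, flanks, bodies and windows of the series were called. The plain binomial test called 372, 1454, 4803 and 107040, and leaving out 1 library gave ranges of 0 to 95, 0 to 1927, 0 to 7735 and 0 to 125856, in which the highest count came from leaving out control replicate 1. The replicate block called 12 flanks. Deviations from the group means correlated between -0.43 and 0.11 for same-numbered libraries and between -0.33 and 0.46 for other pairs. Whether replicate numbers pair the libraries cannot be told from this, since control replicate 1 shifts the control means. At the glial genes the plain binomial test called 1 promoter, 2 flanks, 3 bodies and 47 windows, and leaving out 1 library gave 0 to 2 flanks, 0 to 4 bodies and 0 to 54 windows.

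Without control replicate 1, the 95 of 11787 promoters became 402 at q under 0.05, 599 with the plain binomial test and 0 with unmoderated dispersion. With autosomes only they became 418 of 11531, and 524 with q under 0.05 as well. Chromosome Y content differed within both groups. Its listed cytosines numbered 1147, 182 and 1219 in control replicates 1 to 3, and 187, 1297 and 363 in cKO replicates 1 to 3. Whether this bears on the calls was not tested. Coverage 10 gave 151 of 10089. Promoters at every coding start gave 0 of 22931, or 748 of 22416 with autosomes only. Unmoderated dispersion left 0 flanks, bodies and windows, and limma called 50645 of 285466 windows. Of the 6 glial promoters, 1 was called with autosomes only, 1 at q under 0.05, 2 with both and 3 with the plain binomial test. At overlapping coding starts of Gfap and Mag, 5 were called with autosomes only. At a difference of 10 points 7 of 10 glial bodies were called, against 9419 of 13394 over all genes. limma called 16 of the 167 glial windows, and 0 glial flanks, bodies or windows remained with unmoderated dispersion. With 2 controls left, calls rest on the dispersion shared across features.

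Signs turned only at differences that were not called. Leaving out 1 library moved the Mag flank between -10.43 and 0.68 points, the Sox9 promoter between -0.36 and 0.43, the Sparcl1 promoter between -2.40 and 1.77, the second Sox9 window between -2.85 and 6.37 and the printed Olig1 window between -0.61 and 2.98. Coverage 10 gave -0.15 for the Sox9 promoter, -0.019 for the Mbp promoter (-0.43 without control replicate 1) and -2.46 for the Sparcl1 promoter (-0.76 without control replicate 1). The causes were not tested.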

Other observations

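Several starts of these genes were covered in some libraries only and entered no comparison. Around the classical inner starts of Mbp, cKO replicates 1, 2 and 3 had levels of 41.3% (63 reads), 16.7% (30 reads) and 34.1% (91 reads), against 20.6% (68 reads) in control replicate 1 and 65.1% (63 reads) in control replicate 2, over cytosines that differ between libraries. The Olig2 promoter, in a CpG island, was at 1.20%, 0% and 0% in cKO replicates 1, 2 and 3 (83, 46 and 85 reads) and at 0% in control replicates 2 and 3 (55 and 75 reads). At the Mog start, 0 of 20 reads in cKO replicate 3 and 0 of 7 reads in control replicate 2 were methylated.

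At 20 to 21 kb into the Aldh1l1 locus, 7 cytosines averaged 19.9%, 23.3% and 4.57% in the cKO libraries and 12.9%, 2.84% and 13.4% in the controls, so that cKO replicates 1 and 2 lay above every control and cKO replicate 3 did not. The excess came from the cytosines at 20341, 20372 and 20376 bp, with 8 to 18 reads per library. At the others, in chr6:90507001-90507100 and chr6:90507201-90507300, the groups overlapped. One Mbp intron cytosine, 60919 bp from the annotated 5' end, was at 100% in all 6 libraries, with 12, 13 and 8 reads in the cKO libraries and 10, 37 and 13 reads in the controls.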
